A study of Oryza sativa with 8 samples.

Results

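Urea enters plant root cells through DUR3, a symporter of the plasma membrane that couples urea to protons and is known for high-affinity uptake. Inside the cell, urea also arises from arginine, which the mitochondrial enzyme arginase splits into urea and ornithine. Urease, a nickel enzyme of the cytosol, then splits urea into ammonia and carbon dioxide, and glutamine synthetase can reassimilate the ammonia. The genes described here are DUR3 (Os10g0580400, on chromosome 10), urease (Os12g0234800, on chromosome 12) and arginase (Os04g0106300, on chromosome 4), with the chromosome read from the locus identifier. They were chosen by locus, as the non-control spots whose probe name starts with one of these 3 identifiers.

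Of the 3 genes, 2 had spots on the array and were tested among 24975 units, where a unit is a rice locus or a probe without one. DUR3 and arginase had 2 probes each, with 1 spot per probe. No spot carried the urease locus, so urease was not analysed here. The RefSeq gene table used for names holds DUR3 on chromosome 10 and no symbol for arginase, whose name is thus that of the selection rule alone. No probe, promoter or protein sequence was used here.

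The samples were whole roots of rice seedlings, cultivar Koshihikari, grown for 10 days in ammonium chloride at 0.005 mM (4 arrays) or at 1 mM (4 arrays). The series' text calls the 4 samples of each supply biological replicates, and each was hybridised to its own array with Cy3 as the only dye. The 4 arrays of a supply shared a slide of their own, and in every comparison below an effect of the slide and one of the ammonium cannot be told apart. Whole roots hold many cell types, and fewer cells of a type and less RNA per cell cannot be told apart.

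Per array, 81.4% to 85.1% of non-control spots exceeded background clearly by the scanner software's flag, and no spot was saturated. Arrays of the same supply correlated across units at 0.993 to 0.997, and arrays of different supplies at 0.924 to 0.934. All 3 loci listed as root markers were well above background on all 8 arrays, with a summed linear level of 110 to 119 at 0.005 mM and 122 to 127 at 1 mM, relative to the array's 75th percentile. Among them, Lsi1 and Lsi2, silicon transporter genes of the root, were lower at 1 mM and the remaining locus was higher. All 5 loci listed as markers of green shoot tissue, for the small subunit of Rubisco and for light-harvesting proteins, were also well above background on all 8 arrays. They were higher at 1 mM by 0.62 to 1.92 log2 units, and their summed level was 65.5 to 80.2 at 0.005 mM and 176 to 212 at 1 mM. None of the 8 marker loci was at 0, and the part of either marker list in the results below was not tested.

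Both measured genes had lower signals at 1 mM ammonium than at 0.005 mM. DUR3 fell by 4.21-fold (95% interval 3.69 to 4.80, n = 4 arrays per supply), and arginase fell by 1.40-fold (1.27 to 1.54). For each gene both probes fell, and the values of the 2 supplies did not overlap on any of the 4 probes. Falls were common in these roots: 43.8% of all tested units were lower at 1 mM at a limma adjusted p under 0.05, 8.67% were lower by at least 2-fold as DUR3 was, and, of the 24912 units with a value on every array, 41.5% were lower with groups that did not overlap. Read against that background, 2 falls of 2 measured genes are no result about the genes as a group. Values below are log2 signals relative to the 75th percentile of the same array, and changes are 1 mM minus 0.005 mM.

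The DUR3 probe that stands for the gene, named AK070459 after the transcript it was designed on, read 3.77, 3.77, 3.74 and 3.84 on the 0.005 mM arrays of replicates 1 to 4. On the corresponding 1 mM arrays it read 1.92, 1.75, 1.63 and 1.52. Every 0.005 mM array was above every 1 mM array, with 1.82 log2 units between the nearest values of the groups. The mean was 3.78 ± 0.04 (SD, n = 4) at 0.005 mM and 1.71 ± 0.17 at 1 mM, a change of -2.07 ± 0.08 (SE) with a limma adjusted p of 1.92e-07. The 1 mM arrays were spread more widely than the 0.005 mM arrays, over 0.40 against 0.10 log2 units. That spread remained small beside the difference between the supplies.

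DUR3's second probe, AY463691, read 3.40, 3.47, 3.48 and 3.61 at 0.005 mM and 1.48, 1.43, 1.27 and 1.12 at 1 mM. The groups were again apart, by 1.92 log2 units between their nearest values. Its means were 3.49 ± 0.09 (SD, n = 4) and 1.33 ± 0.17, and with every kept probe as a unit of its own its change was -2.17 ± 0.09 (SE) with a limma adjusted p of 1.76e-07. On both DUR3 probes replicate 1 was the highest and replicate 4 the lowest of the 1 mM arrays, and replicate 4 was the highest of the 0.005 mM arrays. The change of the 2 probes differed by 0.09 log2 units (two-sided exact permutation p = 0.0857, n = 4 per supply), with overlapping groups.

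On the linear scale, the processed signal of the AK070459 probe of DUR3 was 51421 to 57298 at 0.005 mM and 9263 to 13734 at 1 mM. The raw spot signal was at least 288 times its local background on every 1 mM array. The lower values at 1 mM were therefore far from the limit of detection. Among all units, 421 (1.69%) were called lower with a fall at least as large as that of DUR3, which is 3.85% of the 10949 units called lower.

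**Figure D1:**
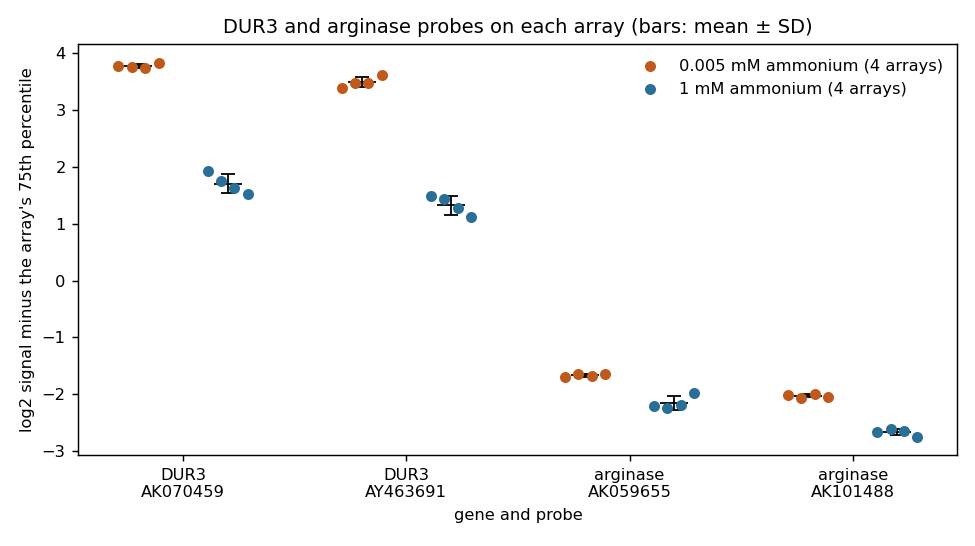
Each point is 1 array, with 4 arrays per ammonium supply, and the vertical axis is the log2 signal minus the 75th percentile of the same array, for the 2 probes of DUR3 and the 2 of arginase. Horizontal bars are group means and vertical bars are SDs; on all 4 probes every 1 mM array lies below every 0.005 mM array, by a wide gap for DUR3 and a narrow one for arginase. Levels of different probes are not comparable with each other.

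The fall of arginase was smaller in size. The probe that stands for it, AK059655, read -1.70, -1.64, -1.68 and -1.65 on the 0.005 mM arrays and -2.21, -2.25, -2.19 and -1.98 on the 1 mM arrays. The groups did not overlap, and the 1 mM array nearest to the other group was replicate 4. The mean went from -1.67 ± 0.03 (SD, n = 4) to -2.15 ± 0.12, a change of -0.49 ± 0.06 (SE) with a limma adjusted p of 0.000122.

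The second arginase probe, AK101488, read -2.01, -2.06, -2.00 and -2.04 at 0.005 mM and -2.66, -2.62, -2.65 and -2.75 at 1 mM. Here replicate 4 was the lowest of the 1 mM arrays, whereas it was the highest on the AK059655 probe. The change was -0.64 ± 0.04 (SE) with a limma adjusted p of 1.75e-06 when every kept probe was a unit. The changes of the 2 probes differed by 0.15 log2 units (two-sided exact permutation p = 0.0857, n = 4 per supply), with overlapping groups.

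The processed linear signal of the AK059655 probe of arginase was 1197 to 1341 at 0.005 mM and 704 to 818 at 1 mM, and the raw spot signal was at least 23.6 times its local background on every array. A fall of this size was common: 5810 units, or 53.1% of those called lower, fell at least as much, and the median change of all units called lower was -0.51. The median change of all tested units was -0.087.

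**Figure D2:**
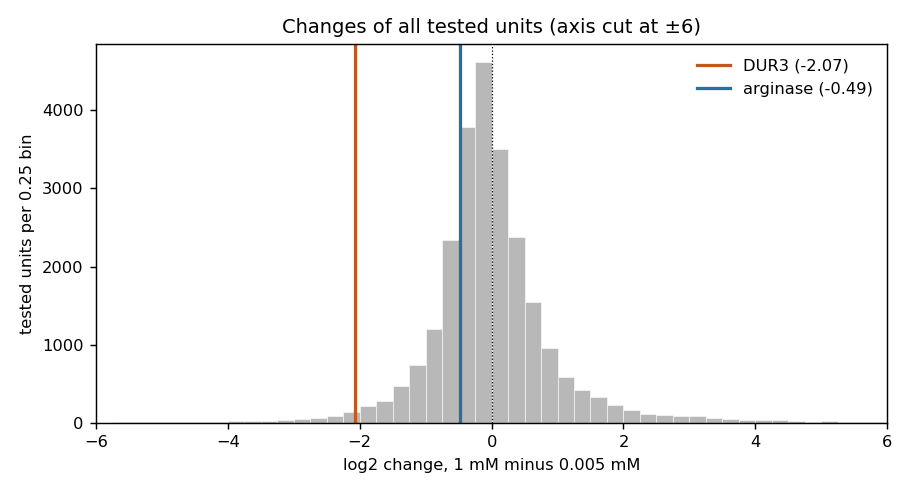
The histogram shows the log2 change, 1 mM minus 0.005 mM, of the tested units in bins of 0.25, with vertical lines at DUR3 (-2.07) and arginase (-0.49). DUR3 lies in the lower tail, and arginase lies near the median of -0.51 of the units called lower. The horizontal axis is cut at 6 log2 units on either side, beyond which lie 64 units.

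The change of DUR3 was set against that of arginase within each array, as the difference of their log2 values. This difference went from 5.45 ± 0.04 (SD, n = 4) at 0.005 mM to 3.86 ± 0.27 at 1 mM, so that DUR3 fell by 1.59 log2 units more than arginase. The 0.005 mM arrays were all above the 1 mM arrays in this difference. The two-sided exact permutation p was 0.0286, the smallest that 4 against 4 arrays allow, and 0.0857 after Benjamini-Hochberg adjustment over the 3 differences of changes compared, which include those between the probes of a gene. The adjusted value is above 0.05, and it could have been under 0.05 only if another of the 3 differences had also reached the smallest p. The adjusted test therefore cannot decide whether the changes of DUR3 and arginase differ. In size, the fall of DUR3 was the larger. The limma interval of its log2 change was -2.26 to -1.89, and that of arginase was -0.63 to -0.34, without overlap. The difference within each array does not depend on the scaling between arrays by a constant, because a constant cancels within an array.

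The authors' deposited table lists all 4 spots of DUR3 and arginase as lower at what it terms sufficient nitrogen, taken here to be 1 mM. The log2 ratios in the authors' deposited table are -2.20 and -2.30 for the DUR3 probes AK070459 and AY463691. For the arginase probes AK059655 and AK101488, the authors' deposited table gives -0.62 and -0.77. The q-values in the authors' deposited table run from 1.87e-06 to 0.000101 over these 4 spots. Each ratio lies 0.13 to 0.14 log2 units below the change computed here for the same spot.

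Among 24720 other loci, Os04g0188400 had the pattern over the 8 arrays nearest to that of DUR3, with a root mean square difference of 0.060 log2 units after each was centred on its own mean. It went from 3.36 ± 0.08 (SD, n = 4) to 1.28 ± 0.24. Within 0.1 log2 units of DUR3 by this measure were 19 loci. For arginase the nearest was Os08g0230100 at 0.029 log2 units, which went from -2.10 ± 0.04 to -2.57 ± 0.10, and 1398 loci lay within 0.1 log2 units. With 8 arrays in 2 groups this measure mostly finds loci with a like change, and the name of neither locus is given in the sources used here.

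The genes that make arginine, use arginine and ornithine, break down purines and ureides, or transport ureides were taken from a list of 18 loci. That list was written from general knowledge, with earlier results of these data known. All 18 were tested: 12 were higher and 4 lower at 1 mM and 2 did not pass, with a median change of 0.42 against -0.087 for all units. At the same threshold, 32.2% of all units were higher and 43.8% lower. Of the list, 9 were higher and 5 lower without scaling between arrays, where 4883 of the 24975 units were higher and 14735 lower. With spike-in scaling 9 were again higher and 5 lower, where 4021 units were higher and 16081 lower. The RefSeq gene table holds the symbols of 11 of the loci on the chromosome that the identifier names, and only these are printed.

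Of the 5 listed loci for arginine synthesis, 4 rose and 1 fell, the latter at a change of -0.14 (limma adjusted p = 0.0437) with overlapping groups. That call was unstable: of its 5 probes 1 was called higher and 1 lower, and it held in 12 of 22 alternatives. The limma adjusted p was 0.0598 with quantile normalization, 0.0618 with median scaling and 0.0595 with no filter, and the value was 0.0028 with its probes averaged. The call also ended in 6 of the 8 fits that left out an array, all 4 of the 0.005 mM arrays and replicates 3 and 4 at 1 mM, at limma adjusted p of 0.0521 to 0.101. CARA (Os02g0708100), the small subunit of carbamoyl phosphate synthetase, rose by 0.58 ± 0.03 (SE, limma adjusted p = 1.05e-06). CARB (Os01g0570700), its large subunit, rose by 0.23 ± 0.03, but had values of -0.038 without scaling and -0.15 with spike-in scaling, neither past the threshold. Arginase, which consumes arginine, fell, and a link between its change and those of CARA and CARB was not tested.

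Of the 7 loci listed under the use of arginine and ornithine, a list that also holds proline genes, 5 rose and 2 did not pass. Those that rose were ADC1, ADC2, P5CS1, P5CS2 and a locus without a symbol. That last locus rose by 0.25, but was not called at 0.0060 with quantile normalization or at -0.057 with normexp and quantile normalization. Nor was it called at -0.020 without scaling or at -0.13 with spike-in scaling. The call of the unnamed locus that did not pass depended on the setting: it was called higher with the replicate block (limma adjusted p = 0.0326) and with normexp and the 75th percentile (limma adjusted p = 0.0455). The arginine decarboxylase genes ADC1 (Os06g0131300) and ADC2 (Os04g0107600), whose enzymes open the route from arginine to polyamines, rose by 0.82 ± 0.06 and 1.78 ± 0.45 (limma adjusted p = 4.92e-06 and 0.00628). The ADC2 arrays were spread widely at 0.005 mM, from -3.06 to -0.86. P5CS1 (Os05g0455500) and P5CS2 (Os01g0848200) encode enzymes that start proline synthesis from glutamate, not from arginine. P5CS1 rose by 0.60 ± 0.04 and P5CS2 by 0.25 ± 0.05. P5CS2 was at -0.016 without scaling and -0.13 with spike-in scaling, neither past the threshold. Its 2 kept probes differed widely, with changes of 0.25 and 2.32, and averaging them gave 1.29. OAT (Os03g0643300), the ornithine aminotransferase that acts on the ornithine released by arginase, had a change of -0.08 ± 0.05 (95% interval -0.19 to 0.03, limma adjusted p = 0.141). It was called lower at -0.35 without scaling, -0.46 with spike-in scaling, -0.19 as the mean of its probes, -0.11 with arrayWeights and -0.12 without replicate 1 at 1 mM, and its other probe was at -0.29.

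Of the 6 loci listed under purine and ureide breakdown, a list that also holds a ureide transporter, 3 rose and 3 fell. This route ends in plants with release of ammonium from ureides. ALN (Os04g0680400), the allantoinase that opens the ring of allantoin, fell by 39.0-fold, from 2.27 ± 0.04 (SD, n = 4) to -3.02 ± 0.13 (limma adjusted p = 5.13e-09). AAH (Os06g0665500), the next enzyme, which takes ammonium from allantoate, fell by 2.36-fold, and XDH (Os03g0429800), xanthine dehydrogenase at the entry to the route, fell by 1.32-fold. UAH (Os12g0597500), which acts on ureidoglycolate at the end of the route, rose by 1.58-fold. The other 2 loci of this list that rose have no symbol in the table.

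The 7 listed loci without a symbol in the table on their own chromosome held 5 that rose, 1 that fell and 1 that did not pass. The largest rises of the whole list were among them, both under purine and ureide breakdown, and are given by identifier after their values had been seen. Os12g0503000, listed as a ureide transporter and not as a breakdown enzyme, went from -4.64 ± 0.12 (SD, n = 4) to 3.18 ± 0.19. All 6 of its probes rose. Os01g0865100 rose by 3.93 ± 0.18 (SE). The other 5 ranged from -0.14 to 0.83. For the locus at 0.83, listed under arginine synthesis, the table holds the listed symbol, but not on the chromosome of the locus.

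**Figure D3:**
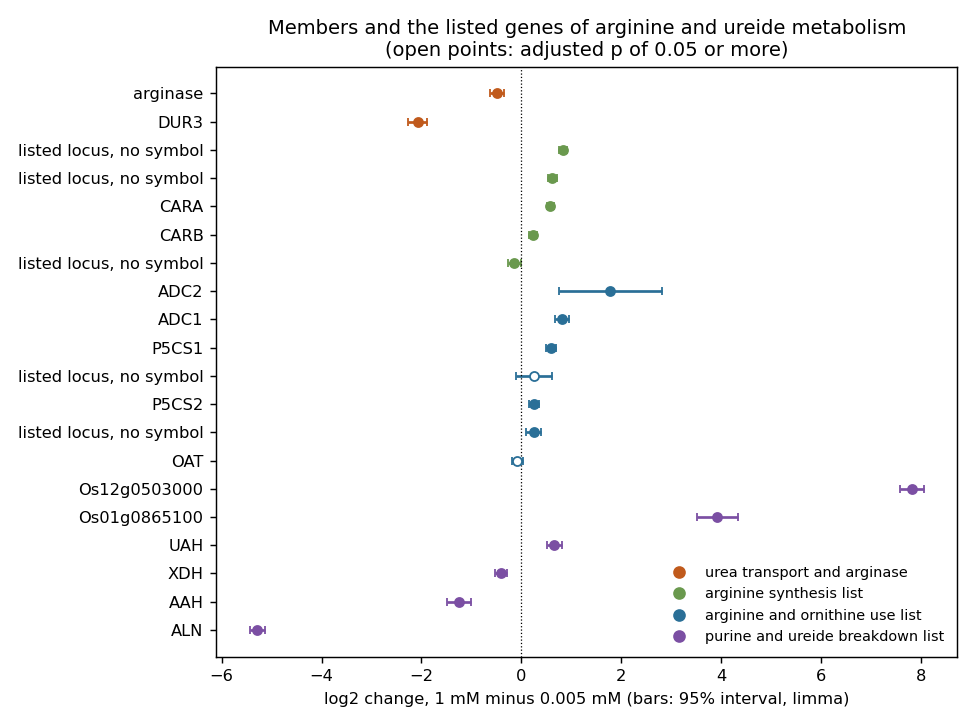
Points are log2 changes, 1 mM minus 0.005 mM, of DUR3, arginase and the 18 listed loci, with 95% intervals from limma as horizontal bars. Filled points passed the adjusted threshold of 0.05 and open points did not. DUR3 and arginase lie left of 0, OAT and 1 locus of the arginine synthesis list lie just left of it, and the ureide loci span from -5.29 (ALN) to 7.82.

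Across 23 processing alternatives the change of DUR3 stayed between -2.45 and -2.01 and that of arginase between -0.87 and -0.45, each past the threshold of its test every time. Spike-in scaling gave the largest fall for both genes and moved the median of all units by -0.38. Relative to the median change of all units under the same setting, DUR3 ranged from -2.22 to -1.92 and arginase from -0.47 to -0.36.

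**Figure D4:**
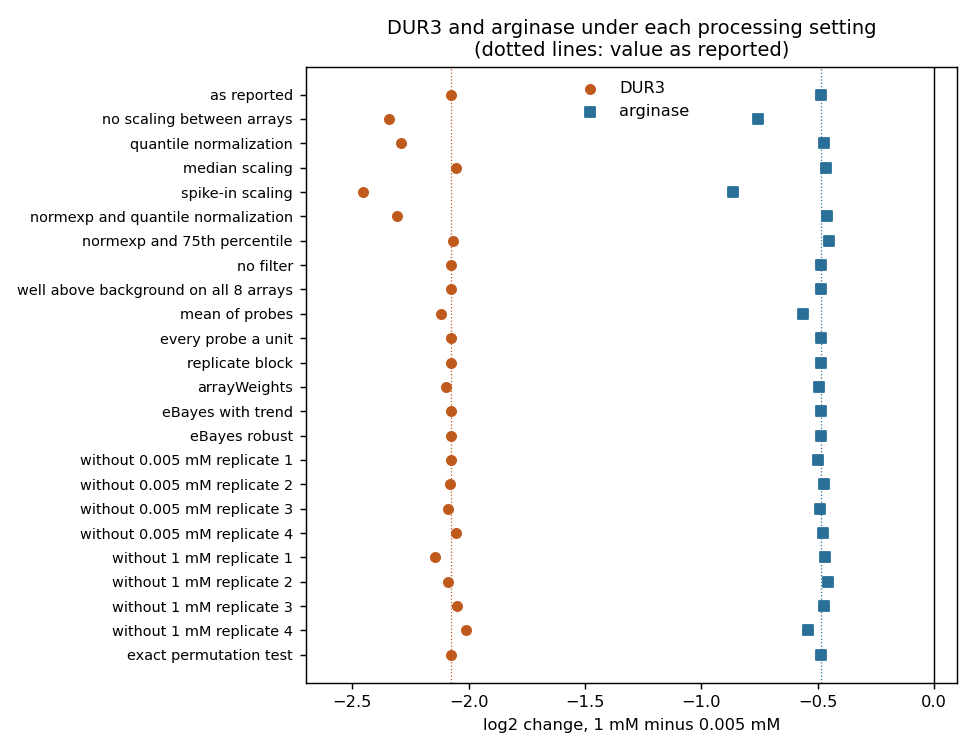
Circles (DUR3) and squares (arginase) are log2 changes, 1 mM minus 0.005 mM, with 1 row for each processing setting and dotted lines at the values as reported. All points lie below 0, and those without scaling and with spike-in scaling lie to the left for both genes. Leaving out 1 array moved DUR3 to between -2.15 and -2.01 and arginase to between -0.54 and -0.45.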

How the data were processed

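RNA of 8 root samples was hybridised to 8 one-colour arrays. Per the file headers, Agilent Feature Extraction 10.10.1.1 wrote the deposited spot intensities, which are linear and, in the processed-signal column, background-corrected. The authors' deposited table holds p-values, q-values and log2 ratios of listed features, and the mean scaled signal of each group. It also has 8 per-array columns, left out here because the sample titles do not contain their names.

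Each array's 75th percentile over non-control spots was subtracted from log2 of the processed signal. Outlier spots were dropped, replicate spots of a probe averaged, and probes kept if well above background on at least 4 of 8 arrays. The brightest kept probe stood for its locus. Supplies were compared by limma 3.58.1 under R 4.3.3 (lmFit, then eBayes). Its two-sided p-values were adjusted across 24975 units after Benjamini and Hochberg, and the threshold was 0.05. Single values were compared by exact permutation over arrays. The functions were tested on simulated data. Alternatives covered scaling, background correction, filter, unit, replicate block, array weights, variance model, test and each array left out. The files hold no mean spot signal, so normexp used the median spot signal, a choice made after the files were seen. The number of arrays limits the precision.

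The members, the lists and the tests were chosen with earlier results of these data known. The rule for named genes takes the measured members with every probe, each tested locus of the pathway list whose symbol the RefSeq table (assembly ASM3414082v1) places on the chromosome of the locus, and the locus nearest in pattern to each member. The table does not list the locus identifiers of the array, so the link from locus to symbol comes from general knowledge. For the 10 pathway symbols on a chromosome with another listed symbol, the order along the chromosome matched that of the identifiers. Marker loci were checked in the same way, and 3 of the 8 had no symbol there.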

Additional observations from a re-analysis of the deposited data

Results flagged for a closer look

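Dixon's ratio was computed for 44 groups of 4 array values, over the 4 probes of DUR3 and arginase and the 18 listed loci. In 1 group it exceeded the 95% critical value, which chance passes in about 1 of 20 groups. This was AAH at 1 mM, where the array of replicate 1 stood at -0.55 and the other 3 lay between -0.15 and -0.12, a ratio of 0.928. No group of a DUR3 or arginase probe exceeded the value.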

How the results depend on the processing

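DUR3 and arginase kept their direction and stayed past the threshold under all 23 alternatives run. The count of units higher at 1 mM, 8049 as reported, was 4883 without scaling, 4021 under spike-in scaling and 12138 if each kept probe was tested, which enlarges the table. The count of lower units, 10949 as reported, was 14735, 16081 and 15493 in the same order. Omitting an array gave 7660 to 7978 higher and 10495 to 10991 lower. Of the pathway list, 12 of 18 loci gave the same call in all alternatives. CARB reversed to -0.038 without scaling and to -0.15 with spike-ins, and P5CS2 to -0.016 and -0.13. Of the loci without a symbol, 1 went to -0.016 and -0.13 under these settings, 1 to -0.020 and -0.13 and also to -0.057 with normexp and quantile normalization, and 1 to 0.0028 if its probes were averaged. The cause was not tested. The pathway list counted 9 to 13 higher and 3 to 5 lower over all alternatives. Under the replicate block 8109 units rose and 11017 fell, and DUR3 and arginase stood at -2.07 and -0.49. Between samples that share a number, deviations from the group mean correlated at 0.32, -0.0069, 0.10 and 0.075, which did not establish a pairing. Replicates 1 and 3 correlated best with their own number, as a hint from the data, and the block changed no call for either gene. In the pathway list it called 1 further locus without a symbol higher. The slide block was not run, as each supply has its own slide, and urease gave no value under any setting.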
